A study of Mus musculus with 4 samples.

Results

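The 10 genes described here are outputs and repressors of the circadian clock together with the thyroid hormone receptor gene that faces one of them: Nr1d1, Nr1d2, Dbp, Tef, Hlf, Per1, Per2, Per3, Ciart and Thra. They were taken as every transcript row that carries 1 of these symbols, 15 of 41449 rows, and the rows of a symbol were summed, giving 10 of 25044 genes. The study sequenced poly(A) RNA of whole mouse hearts in 4 libraries, 1 a group, each from a pool of 3 hearts taken when the mice were 12 weeks old. The transgenic library came from cMyBP-CΔC10mut mice, a hypertrophic cardiomyopathy (HCM) model that carries a 25-bp variant of MYBPC3 as a transgene, and the nontransgenic library from mice without it; both are labelled C57BL/6. The tt library came from cMyBP-C(t/t) mice, a dilated cardiomyopathy (DCM) model, and the control library from mice given as controls, with FvB/N as the strain label of both. The product of MYBPC3 is a protein of the sarcomere that binds myosin in heart muscle. The promoter of the transgene, the sex of the mice and the time of day at collection are not given in the sources used here. Since each group is 1 pool, the intervals below cover counting error only, amplified copies of 1 molecule count more than once, and differences within a pair were not checked on replicates.

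The circadian clock is a feedback loop in which CLOCK and BMAL1 (encoded by Arntl) bind E-box sites and switch on genes whose products turn them off again. The period proteins PER1, PER2 and PER3 and the repressor CIART act on CLOCK and BMAL1 directly, while the nuclear receptors NR1D1 and NR1D2, also called REV-ERB alpha and beta, repress Arntl. DBP, TEF and HLF are related bZIP activators that carry the rhythm to output genes through D-box sites. Heart muscle cells hold such a clock, and the level of these RNAs depends on the time of day. Thra encodes the main thyroid hormone receptor of heart, and its 2 proteins differ at the C terminus: the shorter transcript makes the hormone-binding receptor, and the longer one makes a variant that does not bind hormone.

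Thra and Nr1d1 lie tail to tail on chromosome 11 and share exon bases on opposite strands, and this geometry bears on every value of the pair. In GENCODE M21 on GRCm38, the longer Thra transcript (NM_001313983, 98741811 to 98769006, plus strand) has 10 exons and 2452 exon bases. Nr1d1 (NM_145434, 98767932 to 98775333, minus strand) has 8 exons and 2721 exon bases. Their last exons overlap over 263 bases, 98768157 to 98768419, all coding for Thra, of which 197 code for both proteins, on opposite strands. The shorter Thra transcript (NM_178060) ends at 98765111 and has no base opposite Nr1d1. The stretch that codes on both strands is printed because reads from it belong to either gene, depending on strand. It includes the stop codon of Nr1d1 and is given on the Thra strand at chr11:98768220-98768419, with capitals for the 3 bases that read TGA, this stop codon, on the other strand.

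Thra and Nr1d1 shared coding stretch: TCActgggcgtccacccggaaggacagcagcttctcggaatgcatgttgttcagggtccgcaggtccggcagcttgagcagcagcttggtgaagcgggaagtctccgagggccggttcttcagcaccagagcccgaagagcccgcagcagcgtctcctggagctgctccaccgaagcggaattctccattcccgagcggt

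**Figure D1:**
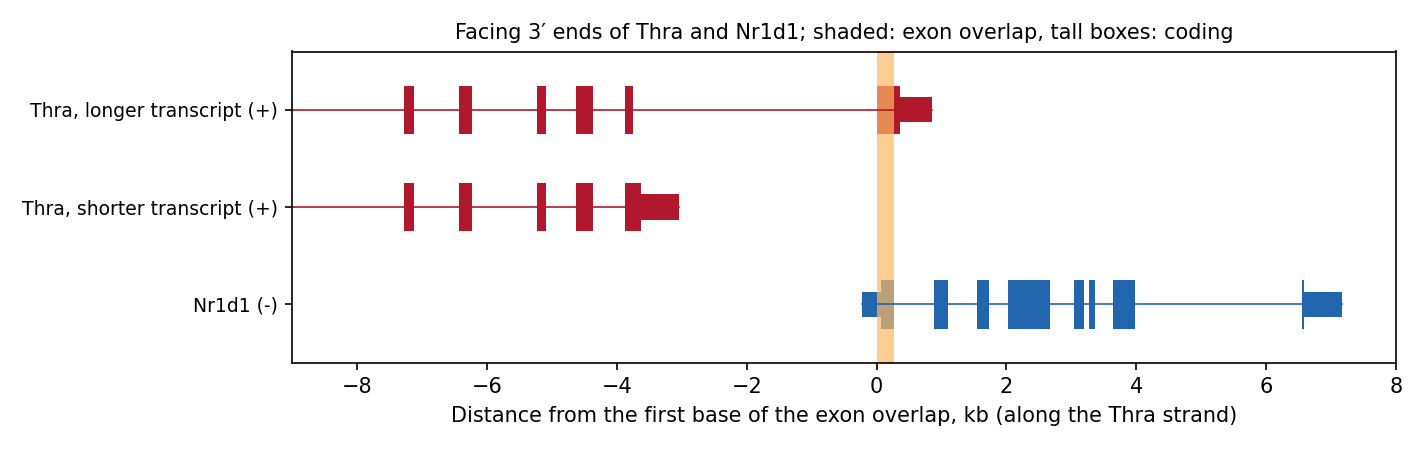
Exon map of the facing 3′ ends of Thra and Nr1d1, with distance in kb along the Thra strand from the first base of the exon overlap; tall boxes are coding, low boxes are not, and the shaded band is the overlap of 263 bases. The last exon of the longer Thra transcript reaches across the end of Nr1d1, while the shorter one stops before it.

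Libraries were made with a stranded kit, but whether strand was used in counting is not given in the sources used here. Reads of Thra and of Nr1d1 RNA in the overlap can therefore not be told apart, and values below belong to the row of a gene. If counting took the strand opposite to the kit's, the Thra row would hold Nr1d1 reads from the overlap, the Nr1d1 row Thra reads, and rows with no facing gene would lack their own reads. Which setting was used was not tested; rows of other facing genes are given beside the depth. The same doubt holds for Dbp, whose last 539 exon bases lie opposite Sphk2 (45709665 to 45710203 on chromosome 7), a sphingosine kinase gene. The Sphk2 row held 1 count in each of the 4 libraries, and with such counting it would hold Dbp reads from the overlap. A Tef transcript faces the noncoding gene Gm17597 over 193 bases, which held 0 counts in every library. The other members, Nr1d2, Hlf, Per1, Per2, Per3 and Ciart, have no exon base opposite another annotated gene.

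Upstream sequence of 5 clock genes is shown and was searched for the letters of sites through which clock factors can act. The matches are of letters only, and binding was not tested. The windows are the 250 bases before the start annotated in RefSeq on GRCm38.p6, written in the direction of the gene. Of the 10 members, 8 had a window. These starts can differ from those of the GENCODE transcripts used for exons. By GENCODE, Dbp starts at 45705088, within its window, and the windows of Nr1d2 and Ciart also reach into the transcript. The letters searched, on both strands, were CACGTG (the E-box), CACGTT (an E-box variant), TTATGTAA and TTATGCAA (D-box forms), and AGGTCA (the core site of nuclear receptors), and capitals mark each match; none of the matches overlap. Nr1d1 is at chr11:98775378-98775627, Nr1d2 at chr14:18239107-18239356 and Ciart at chr3:95882229-95882478, all on the minus strand; Dbp is at chr7:45704997-45705246 on the plus strand and Per3 at chr4:151044666-151044915 on the minus strand.

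Nr1d1: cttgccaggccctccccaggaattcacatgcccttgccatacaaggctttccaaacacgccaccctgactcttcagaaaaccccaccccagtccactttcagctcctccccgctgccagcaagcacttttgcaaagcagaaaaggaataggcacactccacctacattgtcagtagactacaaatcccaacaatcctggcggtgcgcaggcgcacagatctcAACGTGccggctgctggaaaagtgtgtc

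Nr1d2: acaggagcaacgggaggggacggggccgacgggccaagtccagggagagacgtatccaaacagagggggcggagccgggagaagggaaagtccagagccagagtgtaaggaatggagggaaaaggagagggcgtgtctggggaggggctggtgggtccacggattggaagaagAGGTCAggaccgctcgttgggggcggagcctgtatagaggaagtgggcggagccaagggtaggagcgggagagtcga

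Dbp: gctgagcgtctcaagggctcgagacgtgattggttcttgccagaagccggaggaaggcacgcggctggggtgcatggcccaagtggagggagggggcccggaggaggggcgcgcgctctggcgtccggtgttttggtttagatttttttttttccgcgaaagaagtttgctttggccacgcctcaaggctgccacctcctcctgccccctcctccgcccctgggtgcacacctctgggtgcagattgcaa

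Ciart: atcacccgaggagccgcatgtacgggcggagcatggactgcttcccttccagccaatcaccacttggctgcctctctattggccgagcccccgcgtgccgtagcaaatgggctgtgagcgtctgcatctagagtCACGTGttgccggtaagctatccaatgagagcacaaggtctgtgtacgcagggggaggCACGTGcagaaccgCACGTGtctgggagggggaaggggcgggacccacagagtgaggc

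Per3: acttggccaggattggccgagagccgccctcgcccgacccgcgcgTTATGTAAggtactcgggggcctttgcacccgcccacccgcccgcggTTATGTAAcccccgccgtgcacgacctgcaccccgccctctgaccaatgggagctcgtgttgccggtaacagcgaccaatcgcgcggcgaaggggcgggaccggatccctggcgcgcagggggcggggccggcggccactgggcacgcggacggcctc

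Ciart held 3 E-box matches, 116, 58 and 44 bases before the start, where 6.02% of all 32851 windows of this length held at least 1. Per3 held 2 D-box matches, 205 and 158 bases before the start, and 0.819% of windows held 1. Nr1d1 held 1 E-box variant 28 bases before the start (3.85% of windows), read on the other strand, and Nr1d2 held 1 AGGTCA 77 bases before it (14.0% of windows). Each of the 2 Tef windows held 1 E-box. Of these, the window at 81802423 to 81802672 lies after the GENCODE start of NM_153484, at 81802421. Of the 2 Per1 windows, the one further upstream held an E-box, an AGGTCA and TTATGCAA, which 0.694% of windows held, and the other held no match. No letters of the search were found in the Dbp and Hlf windows, which says nothing of sites elsewhere.

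Most of the clock gene rows held few counts or none. Library totals were 187365 counts (transgenic), 170543 (nontransgenic), 186420 (tt) and 176633 (control), so that a single count equals 5.19 to 6.23 CPM (counts scaled to a common library size, after TMM) and 3 counts, taken as the limit for a value of 0, equal 15.6 to 18.7 CPM. Of the 10 members, 4 held at least 10 counts in every library (Thra, Nr1d1, Dbp and Nr1d2), 4 held 5 or fewer (Hlf, Ciart, Per2 and Tef) and 2 held none in any library (Per1 and Per3). Together the 10 members held 505 counts in the transgenic library, 805 in the nontransgenic, 659 in the tt and 731 in the control library, or 0.270%, 0.472%, 0.354% and 0.414% of the total. The Thra and Nr1d1 rows made up 85.1% of those counts in the transgenic library, 95.5% in the nontransgenic, 91.5% in the tt and 92.1% in the control library.

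Libraries are compared below after TMM scaling, and a gene was called where its log2 ratio was at least 1 in size with a 95% counting interval that excludes equality. This rule called 348 of 8033 genes with a count in the HCM pair (4.33%; 1.81% higher and 2.53% lower). It called 353 of 8248 in the DCM pair (4.28%; 2.7% higher and 1.58% lower) and 252 of 8152 between control and nontransgenic libraries (3.09%; 1.4% higher and 1.69% lower). Among genes with at least 10 counts in a library of the pair the shares were 13.1%, 12.8% and 8.41%. The tissue label was checked on 8 cardiomyocyte markers: Myl2, Actc1, Tnni3 and Ckm held between 290 and 3520 counts in every library, Ttn held 7 to 11, and Myh6, Mb and Tnnt2 held 0 or 1. Transcripts with an exon opposite another gene made up 20.9% of all transcripts with annotated exons and took between 66.9% and 70.4% of the counts in each library. Myh6, the main myosin heavy chain gene of adult mouse heart, faces Gm49130 and held 0 or 1 counts. Of the high marker rows, Ckm faces A930016O22Rik, while no facing gene was found for Myl2, Actc1 and Tnni3. Why these rows differ was not tested. Tsix, which faces Xist, held 147 counts in the transgenic and 0 in the nontransgenic library, and 159 in the tt and 0 in the control library. Xist itself held 8 and 0, and 14 and 0, in the same order. Both ran with genotype in both pairs; the sex of the pools and their genotype cannot be told apart.

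The row of Thra, the thyroid hormone receptor gene, was lower in both mutant libraries than in their controls, and in the HCM pair it passed the 2-fold rule. Whether its reads are of Thra or of Nr1d1 RNA cannot be told apart. The row held 302 counts in the transgenic library, against 575 in the nontransgenic library, which is 1613 against 3585 CPM. The ratio was 2.22-fold lower (log2 ratio -1.15, 95% interval -1.36 to -0.95). In the DCM pair the row held 416 counts in the tt library, against 536 in the control library, or 2160 against 2947 CPM. That ratio was 1.36-fold lower and under the size rule, with an interval that excludes equality (log2 ratio -0.45, -0.64 to -0.26). Between the groups without an altered MYBPC3, 2947 CPM in control and 3585 CPM in nontransgenic hearts gave a log2 ratio of -0.28 (-0.46 to -0.11). Scaled by library totals it was -0.15 with an interval that spanned equality (-0.32 to 0.02). With TMM scaling the order was nontransgenic, control, tt, transgenic, from high to low. Tt and control libraries differed by more than counting error, control and nontransgenic libraries did so with TMM scaling and not with library totals, and tt and transgenic libraries, of different pairs, were not compared.

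Nearly all Thra counts sat on the longer transcript. NM_001313983 held 302, 574, 413 and 533 counts in the transgenic, nontransgenic, tt and control libraries, while NM_178060 held 0, 1, 3 and 3. The longer transcript has 912 exon bases that the shorter one lacks, 263 of them opposite Nr1d1, and the shorter has 706 of its own, none opposite another gene. Over those own bases, the longer transcript stood at 331, 629, 453 and 584 counts per kb in the same order, and the shorter at 0, 1.42, 4.25 and 4.25. How the counting treated reads that fit both transcripts is not given, and the share of the Thra counts that comes from the overlap was not tested. With transcripts that face another gene left out, Thra kept 0 to 3 counts a library and no ratio could be read from it.

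**Figure D2:**
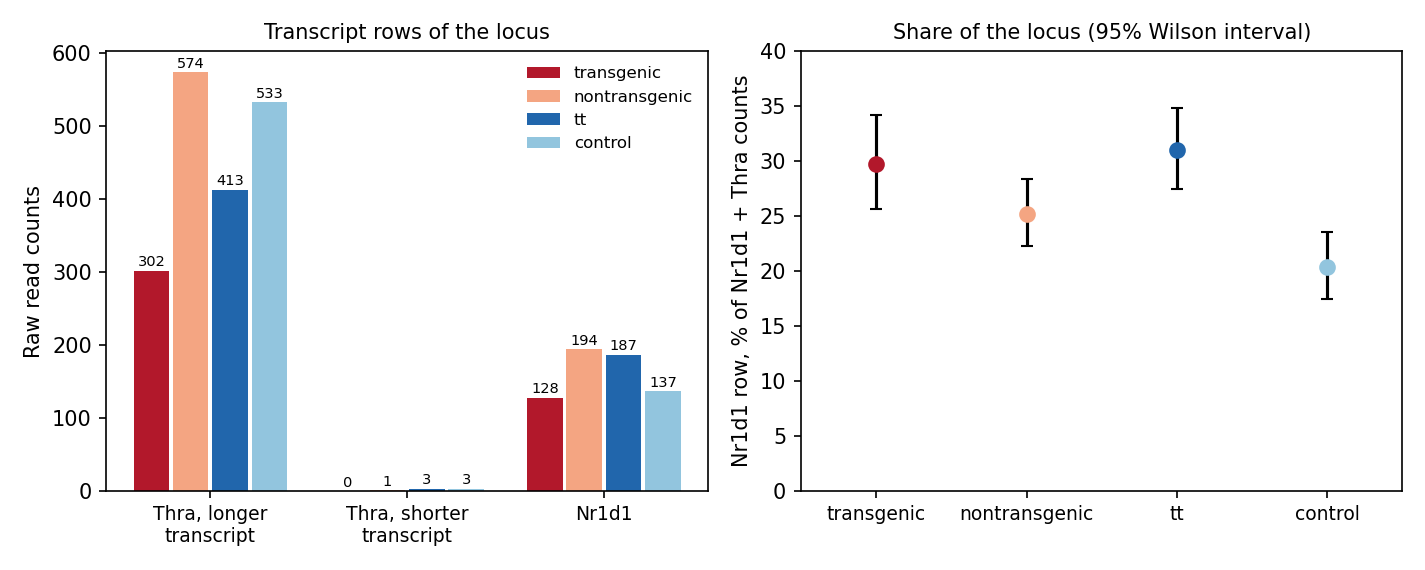
Left, raw read counts of the 3 transcript rows of the locus in the 4 libraries; right, the Nr1d1 row as a percentage of Nr1d1 and Thra counts, with 95% Wilson intervals. The shorter Thra transcript holds 0 to 3 counts, and the Nr1d1 share is 31.0% in the tt and 20.4% in the control library.

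The row of Nr1d1, the clock repressor on the other strand, had ratios of opposite sign in the 2 models. It held 128 counts in the transgenic library, against 194 in the nontransgenic library, which is 684 against 1210 CPM. The row was 1.77-fold lower (log2 ratio -0.82, -1.16 to -0.49), under the 2-fold size. In the DCM pair it held 187 counts in the tt library, against 137 in the control library, or 971 against 753 CPM, 1.29-fold higher with an interval that barely excludes equality (log2 ratio 0.37, 0.04 to 0.70). The control library was in turn lower than the nontransgenic one (log2 ratio -0.68, -1.01 to -0.36), beside -0.82 in the HCM pair. The difference between the log2 ratios of the HCM and DCM pairs was -1.19 (counting interval -1.64 to -0.73), and past the 2-fold size. A difference past that size, with an interval that excludes equality, was found for 4.3% of the 9344 genes with a count in any library. The share among genes as abundant as Nr1d1 was not computed.

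Thra and Nr1d1 can also be set against each other within a library, which needs no scaling. The Nr1d1 row made up 29.8% of the counts of both rows in the transgenic library (Wilson 95% interval 25.6 to 34.3), against 25.2% in the nontransgenic library (22.3 to 28.4). It made up 31.0% in the tt library (27.4 to 34.8), against 20.4% in the control library (17.5 to 23.6). Both mutant libraries thus had the higher share, and the intervals were apart in the DCM pair and overlapped in the HCM pair. The transgenic library had the lowest value of both rows, and the nontransgenic library the highest of both. The neighbours of the locus were sparse: Psmd3, a proteasome subunit, held 22 counts in the transgenic and 20 in the nontransgenic library, and 12 in the tt and 8 in the control library. Med24, Msl1 and Csf3 held none in any library, Casc3 0 to 2 and Rapgefl1 0 to 2.

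**Figure D3:**
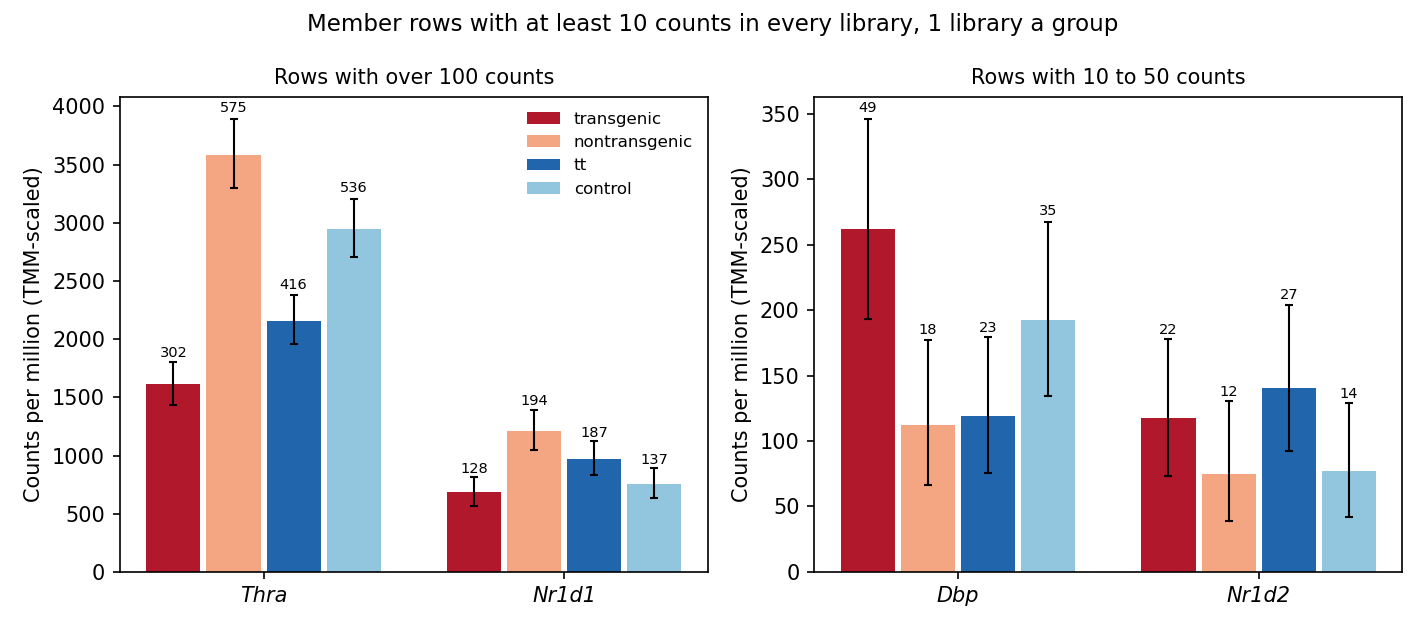
TMM-scaled CPM of the 4 member rows with at least 10 counts in every library; bars are the values of 1 library each, error bars the exact 95% Poisson counting intervals, and numbers the raw counts. The Thra row was highest in the nontransgenic library (575 counts) and the Dbp row in the transgenic library (49 counts).

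The row of Dbp, the best known output of the clock among the bZIP activators, was the 1 member called higher in a mutant. Whether its reads are of Dbp or of Sphk2 RNA cannot be told apart. The row held 49 counts in the transgenic library, against 18 in the nontransgenic library, or 262 against 112 CPM. The ratio was 2.30-fold (log2 ratio 1.20, 0.42 to 2.09). In the DCM pair Dbp held 23 counts in the tt library, against 35 in the control library, or 119 against 192 CPM, and the interval spanned equality (log2 ratio -0.68, -1.51 to 0.11). The control library lay above the nontransgenic one, with an interval that also spanned equality (log2 ratio 0.76, -0.08 to 1.69); scaled by library totals it was 0.89 and excluded equality (0.05 to 1.82). The log2 ratios of the pairs differed by 1.88 (0.80 to 2.95), past the 2-fold size. The sum of 5 macrophage markers ran the same way. It was 40 counts in the transgenic and 14 in the nontransgenic library, and 10 in the tt and 37 in the control library. Lyz2 carried most of these sums, with 28 and 6 counts in the transgenic and nontransgenic libraries and 5 and 28 in the tt and control libraries. Csf1r held 6 and 3, and 3 and 5, and C1qa 5 and 4, and 1 and 4, in the same order. Cd68, at 1 and 1, and 1 and 0, did not follow, and Adgre1 held 0 in every library. The 5 mural markers, of vessel wall cells, summed to 170 and 99, and 129 and 155, in the same order. Of these, Pdgfrb and Myh11 held 0, and Tagln, at 26 and 28, and 26 and 36, went the other way in the HCM pair. Of 4 atrial markers Nppa alone was detected, at 22 and 9, and 16 and 60. The cardiomyocyte sums were 34400 and 27720 CPM, and 24150 and 26966 CPM. As CPM, endothelial and fibroblast sums were lower in both mutant libraries. Endothelial markers summed to 1223 and 1390 CPM, and 691 and 1440 CPM. Fibroblast markers summed to 117 and 168 CPM, and 109 and 198 CPM. As raw counts, the endothelial sum was 229 in the transgenic and 223 in the nontransgenic library. Fabp4 carried most of it, at 184 and 154 counts, while Cdh5, Kdr and Tie1 were lower in the transgenic library. Dcn, at 2 and 1 counts, and Lum, at 13 and 11, also went the other way in the HCM pair, while Col1a1 and Col1a2 were lower. The part of these cell types in the Dbp values was not tested, and fewer cells of a type and less RNA per cell cannot be told apart in whole hearts. Since its last exon faces Sphk2, the Dbp call also ended when transcripts with an opposite exon were left out.

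Nr1d2, the paralogue of Nr1d1 (chromosome 14, 18204054 to 18239127, minus strand), had the higher count in each mutant library. It held 22 counts in the transgenic library, against 12 in the nontransgenic library (log2 ratio 0.63, -0.43 to 1.80). The tt library held 27 counts and the control library 14 (log2 ratio 0.84, -0.12 to 1.91). Both intervals spanned equality, and the control and nontransgenic libraries were close (77.0 and 74.8 CPM, log2 ratio 0.04, -1.18 to 1.28). Nr1d2 has no opposite-strand exon, so that its row would lack its own reads if counting took the strand opposite to the kit's. That setting was not tested.

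**Figure D4:**
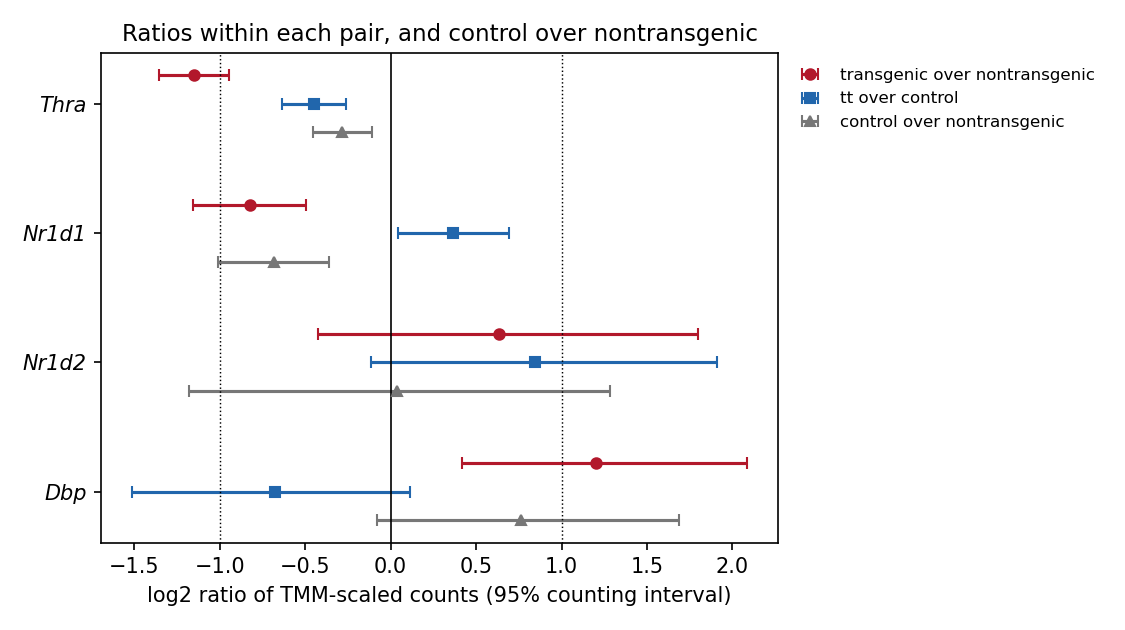
Log2 ratios of TMM-scaled counts for Thra, Nr1d1, Nr1d2 and Dbp in the HCM pair (circles), the DCM pair (squares) and for control over nontransgenic (triangles), with 95% counting intervals; dotted lines mark the 2-fold size. Thra at -1.15 and Dbp at 1.20 in the HCM pair lie past it, and Nr1d1 lies on opposite sides of 0 in the pairs.

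Of the 10 members, Thra was called lower and Dbp higher in the HCM pair, beside 2.53% and 1.81% of all genes. No member was called in the DCM pair or between control and nontransgenic libraries. Both called genes are among the 4 with at least 10 counts, and 13.1% of all genes of that abundance were called in the HCM pair. The median log2 ratio of the 4 was -0.09 (HCM) and -0.04 (DCM), against 0.01 and -0.00 over all genes with at least 10 counts. A difference common to both mutants was tested on all 4 libraries in an edgeR quasi-likelihood fit that kept the pairs as blocks. Thra had the lower value in both mutants (log2 fold change -0.80). Its edgeR adjusted p was 0.458 over 7360 genes and did not pass 0.05. None of the 8 members tested passed by edgeR or by DESeq2, and 1 had an unadjusted p under 0.05 by each tool, which with edgeR was Thra. Over all genes, 18 (0.245%) passed with edgeR and 0 with DESeq2. Tsix and Xist were among the 18, and in this test genotype and the sex of the pools cannot be told apart. The common log2 fold changes of Nr1d2, Dbp and Nr1d1 were 0.76, 0.26 and -0.23, each with an adjusted p of 0.997.

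The remaining clock outputs gave counts too small for a ratio. Hlf (chromosome 11, 90336536 to 90390895), the bZIP activator, held 2 counts in the transgenic and 2 in the nontransgenic library, and 1 in the tt and 5 in the control library. Ciart, on chromosome 3, held 1 and 2 counts in the transgenic and nontransgenic libraries and 2 and 3 in the tt and control libraries. Per2, on chromosome 1, held 1, 1, 2 and 1 in the same order. Tef, on chromosome 15, held 0 in the transgenic and 1 in the nontransgenic library, and 1 in the tt and 0 in the control library. Every interval of a ratio for these 4 genes spanned equality. Per1, on chromosome 11, and Per3, on chromosome 4, held 0 counts in all libraries, with a limit of 15.6 to 18.7 CPM at 3 counts.

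Genes with several transcript rows were often at 0. Per1 has 2 rows that share all but 38 and 73 of their exon bases, Per3 has 3 rows that matched a single GENCODE transcript, and Tef has 2 rows with 307 and 631 bases of their own. Over the whole table, 80.2% of 7900 genes with more than 1 row held no count in any library, against 54.6% of 17144 genes with 1 row. A value of 0 for Per1, Per3 or Tef is therefore given as a value of these rows only, and the part of the row structure in it was not tested.

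Scaled by exon length, the rows of Thra, Nr1d1, Dbp and Nr1d2 kept this order in all 4 libraries. The full exon length of each row was used. Which part of it the reads came from was not tested, so that this is an order of rows and not of RNA levels. The longer Thra transcript stood at 658, 1460, 875 and 1195 CPM per kb in the transgenic, nontransgenic, tt and control libraries. Nr1d1 followed at 251, 445, 357 and 277 CPM per kb, then Dbp at 142, 61.1, 65.0 and 105, and Nr1d2 at 25.2, 16.0, 30.1 and 16.5. Ciart, at 3.82, 8.92, 7.43 and 11.8 CPM per kb, rested on 1 to 3 counts, so that in the control library it does not differ from Nr1d2 beyond counting error. Hlf stood between 0.920 and 4.87 and Per2 between 0.915 and 1.78 CPM per kb, Per2 above Hlf in the tt library and below it in the other libraries.

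The other clock genes shared the low counts. Of 7 core activators, 6 held 0 counts in every library, Arntl and Clock among them, and Npas2 held 1 count, in the nontransgenic library. All 5 other repressors held a count, and none was called in a pair. Bhlhe40, a bHLH repressor, held 7 counts in the transgenic and 3 in the nontransgenic library, and 9 in the tt and 6 in the control library; Cry1, Cry2, Nfil3 and Bhlhe41 held 0 to 4. Of 8 genes of clock protein turnover, 6 held no count in any library, Csnk1d among them, and none was called in a pair. The arms of the loop opposite to the members could therefore not be compared.

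Of 23 genes known as rhythmic or clock-controlled in heart or other tissues, 13 held a count in the HCM pair, of which 0 were called higher and 1 lower, and 13 in the DCM pair, of which 1 was called higher and 0 lower. The shares called over all genes with a count were 4.33% (HCM) and 4.28% (DCM). The median log2 ratio of the list was -0.15 in the HCM and 0.42 in the DCM pair, against -0.11 and -0.05 over all genes with a count. Over the 5 members of the list with at least 10 counts the medians were 0.22 and 0.43. Rgs16, a regulator of G protein signalling, held 0 counts in the transgenic and 5 in the nontransgenic library, and 0 in the tt and control libraries; it faces Gm28513. Klf9, a Krüppel-like factor that responds to both thyroid hormone and corticosteroids, held 44 counts in the tt library, against 18 in the control library (log2 ratio 1.19, 0.39 to 2.09). In the HCM pair it held 58 counts in the transgenic library, against 38 in the nontransgenic library, with an interval that spanned equality (log2 ratio 0.38, -0.23 to 1.02). The control library itself was lower than the nontransgenic one in Klf9 (log2 ratio -1.24, -2.16 to -0.41). Nampt, of NAD synthesis, held 34 counts in the transgenic and 25 in the nontransgenic library, and 56 in the tt and 39 in the control library. Dgat2, of triglyceride synthesis, held 28 and 14 in the transgenic and nontransgenic libraries and 22 and 25 in the tt and control libraries. Tcap, the titin cap protein, held 393 and 323 in the transgenic and nontransgenic libraries and 256 and 306 in the tt and control libraries, within 2-fold in both pairs, as was Gys1, a glycogen synthase, at 11 and 15 and at 21 and 14 counts.

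The rows of other genes in thyroid hormone action held few counts. Of 14 receptors, partners, transporters and deiodinases, 4 (HCM pair) and 6 (DCM pair) held a count, and none was called. Thrb, the other thyroid hormone receptor gene, and the partners Rxra and Rxrb held 0 counts, as did the deiodinase genes Dio1, Dio2 and Dio3; the transporter gene Slc16a10 held 3 to 5. Of 16 genes regulated by thyroid hormone in heart, 0 were called higher and 1 lower in the HCM pair among 14 with a count. In the DCM pair 1 was higher, Klf9, and 1 lower among 15. The shares called over all genes with a count were 4.33% (HCM) and 4.28% (DCM). The list medians were 0.13 and 0.25, against -0.11 and -0.05 over all genes with a count. Over the 7 list genes with at least 10 counts they were -0.06 and 0.25, against 0.01 and -0.00 over all genes of that abundance. The sign of the list median in the HCM pair thus depends on the sparse genes. The lower gene of the HCM pair was Myh7, the beta myosin heavy chain gene, with 11 counts in the transgenic library, against 27 in the nontransgenic library (log2 ratio -1.47, -2.68 to -0.46). In the DCM pair it held 20 counts in each library. Myh7 faces Gm29015, Gm31251 and Mhrt, a long noncoding RNA gene of heart with 6620 counts in the transgenic and 1778 in the nontransgenic library, and 447 in the tt and 698 in the control library. Reads of Myh7 and of these genes cannot be told apart. Klf9 and Thrsp have no opposite-strand exon, and with counting on the strand opposite to the kit's their rows would lack their own reads. Thrsp, a thyroid hormone responsive gene of fat synthesis, held 2 counts in the tt library, against 10 in the control library (log2 ratio -2.14, -5.63 to -0.17). Ryr2, Ucp3 and Atp1b1 were among the list genes with at least 10 counts that stayed under the rule in both pairs. Ryr2, the calcium release channel, held 144 and 129 counts in the transgenic and nontransgenic libraries and 201 and 141 in the tt and control libraries. Ucp3, an uncoupling protein, held 12 and 20, and 10 and 20, in the same order. Atp1b1, a subunit of the sodium pump, held 86 counts in the transgenic and 44 in the nontransgenic library, and 79 in the tt and 62 in the control library; it faces Nme7.

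Corticosteroids set the phase of clocks in peripheral tissues, and Per1 is a direct target of their receptor. Of 10 genes of the corticosteroid response, 6 held a count in each pair. In the HCM pair 0 were called and in the DCM pair 1, beside 4.33% and 4.28% of all genes with a count. The called gene was Klf9, the same row that was called in the rhythmic and thyroid hormone lists. The list medians were 0.34 and 0.43, against -0.11 and -0.05 over all genes with a count. Over the 2 list genes with at least 10 counts they were 0.34 and 1.05, against 0.01 and -0.00 over all genes of that abundance. Dusp1, a MAP kinase phosphatase, held 42 counts in the transgenic and 29 in the nontransgenic library, and 60 in the tt and 30 in the control library (log2 ratios 0.31, -0.41 to 1.05, and 0.91, 0.26 to 1.60). Fkbp5 held 1 or 2 counts in every library, Mt1 2 to 9, and Sgk1, Zbtb16 and Cdkn1a none.

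The genes closest to Thra and to Nr1d1 over the 4 libraries were looked for among 632 others with at least 50 counts in a library, by the Euclidean distance of centred log2 CPM. Nearest to Thra were Selenoo (distance 0.088; 64 counts in the transgenic, 123 in the nontransgenic, 95 in the tt and 114 in the control library), Ovol1 (0.088), Ciao1 (0.103) and Atcay (0.146), besides a transcript without a symbol. Selenoo faces Tubgcp6, Ovol1 faces AC126029.1 and Gm31166, and Atcay faces Atcayos. Nearest to Nr1d1 were Pkd2l2 (0.057; 81, 128, 120 and 91 counts in the same order), Slfn5os (0.091), Psmd7 (0.114), Fer1l5 (0.186) and Rufy2 (0.195). Pkd2l2 faces Fam13b, Slfn5os faces Slfn5 and Unc45b, and Fer1l5 faces Lman2l. Nr1d1 itself ranked 156 of the 632 by distance from Thra (0.640) and was not among the nearest 5. What this rank says of shared reads was not tested.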

How the data were processed

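RNA of 4 pools of mouse hearts was measured, 1 library a group. The authors deposited a read count for each RefSeq transcript, not normalized. The tools named in the submitters' processing notes are STAR and HTSeq, and the build is mm10; no version, counting mode or strand setting is given in the sources used here. Of 41449 transcripts, 41252 matched a symbol in RefSeq genes (GRCm38.p6); counts were summed per symbol. Exons came from GENCODE M21 (GRCm38, the sequence of mm10), which placed 35368 transcripts, 7393 of them with exon bases that another gene's exons face on the other strand.

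With 1 library a group, pairs were compared by size: TMM-scaled counts (edgeR 4.0.16, R 4.3.3), a prior count of 0.5, Clopper-Pearson conditional binomial intervals at 95%, and a call at a log2 ratio of at least 1 in size, with an interval that excludes equality and 1 CPM in a library of the pair. The interval for the difference of the pairs' log2 ratios used a normal approximation. For a difference common to both mutants, edgeR's quasi-likelihood test was run over genes that reached 1 CPM in 2 or more libraries, with Benjamini-Hochberg adjustment and 1 residual degree of freedom; DESeq2 1.42.0 was an alternative. Other alternatives were other scalings, a prior count of 2, a minimum of 10 counts, 1 transcript a symbol, and transcripts without an opposite exon. The scripts were tested on simulated data. The members and gene lists were chosen with earlier results of these data known. Named genes were the 10 members, list genes with at least 10 counts in a library or past the size rule, genes that face a member, and the 5 nearest in pattern to members with at least 50 counts; sparser list genes are named to show detection. Single values of some list genes are not reported here.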

Additional observations from a re-analysis of the deposited data

Results flagged for a closer look

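The log2 ratios of Dbp and of Nr1d1 had opposite signs in the 2 models. The Dbp log2 ratio was 1.20 for transgenic over nontransgenic and -0.68 for tt over control, whose interval spanned equality, a difference of 1.88 (counting interval 0.80 to 2.95). For Nr1d1 the log2 ratios were -0.82 and 0.37, a difference of -1.19 (-1.64 to -0.73). Of the 9344 genes with a count in any library, 4.3% had a difference past the 2-fold size, and the share among genes of like abundance was not computed. Each pair holds 1 library a group, so the difference was not tested against any spread between hearts, and strain label differs between the pairs as well. Both rows have an exon opposite another gene, Sphk2 for Dbp and Thra for Nr1d1.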

How the results depend on the processing

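The counts of called members were compared under 7 alternatives for each pair. In the HCM pair, Thra and Dbp were called in every alternative but the one restricted to transcripts without an opposite-strand exon, where 0 were called because the rows that carry both are removed. The count was 0 under every alternative in the DCM pair and between control and nontransgenic libraries. Of 198 single values under alternatives, 195 kept their side of the threshold or stayed within the main counting interval and 3 moved outside it, all of Thra without its longer transcript (-1.66 in the HCM pair, -0.07 in the DCM pair and 1.08 between control and nontransgenic, on 0 to 3 counts). Many of these values could hardly move. The intervals of Tef, Hlf, Per2 and Ciart are very wide, and the 10-count minimum leaves the pair ratios it keeps unchanged by construction. The 195 are therefore no measure of robustness. For Thra in the HCM pair the settings that kept its longer transcript gave log2 ratios up to -1.06, and for Dbp the range was 1.10 to 1.29. No member passed the common test under any of 5 alternatives. Their adjusted p for Thra lay between 0.570 (edgeR without a filter) and 0.998 (DESeq2), beside 0.458 with the main edgeR settings. Over all genes 18 passed with the main settings. With DESeq2, without the pair, with library totals, without a filter and at 10 counts, 0, 0, 9, 11 and 1 passed. Scaling by library totals shifted every log2 ratio by 0.09 in the HCM pair and 0.13 between control and nontransgenic, and TMM over genes without an opposite exon by -0.10 in the HCM pair. The split of higher and lower genes was 145 and 203 in the HCM pair and 109 and 245 with that TMM; between control and nontransgenic it was 114 and 138, and 155 and 84 with library totals. Without transcripts that face another gene the splits were 108 and 99 (HCM), 124 and 76 (DCM) and 85 and 75. Library totals also ended the exclusion of equality for Thra between control and nontransgenic (-0.15) and brought it for Dbp (0.89). With 1 library a group, no library was left out; the pairs of the common test are each model with its control, and no block by replicate number could be fitted, since the labels give none. At 5 or fewer counts a library, 6 of the 10 members gave no usable ratio; the parts of depth, transcript rows and strand in that were not tested.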
